A study of Mus musculus with 12 samples.

Results

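The serpin genes were taken as every gene of the tables whose symbol is Serpin followed by a clade letter from a to i, a number and, for some, a copy letter. This gave 63 of the 41743 genes listed, of which 24 were of clade a, 28 of clade b and 11 of clades c to i. At least 1 TPM in at least 3 of the 12 livers was found for 28 of them, and changes were computed for these 28 only. TPM is a transcript's share of the library after its reads are divided by its length, and that division lets levels be compared between genes. TPM sums to the same total in each liver.

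Serpins are a fold shared by most of the protease inhibitors of plasma. An inhibitory serpin offers an exposed reactive centre loop to a protease, is cut there, and traps the enzyme by swinging it to the other end of the molecule. Hepatocytes secrete the serpins that restrain elastase, thrombin, plasmin and the complement proteases, clade b serpins mostly stay inside the cell, and a few members of the fold carry hormones or fold collagen instead of inhibiting proteases.

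RNA of whole liver came from 12 female mice aged 3 to 4 months, in 4 groups of 3. YAP KO mice had lost both floxed copies of Yap1 through Foxa3-Cre, which is active in the foregut endoderm that forms hepatocytes and bile ducts, carried a ROSA-stop-EYFP reporter on the C57BL/6 background, and were set against WT (C57BL/6) littermates. YAP KO TAZ HET mice also had 1 floxed copy of Wwtr1, the TAZ gene, were bred from FVB floxed mice and C57BL/6 Foxa3-Cre mice, and were set against WT (mixed) littermates of that C57BL/6-FVB background. Other cells of the liver keep the floxed genes. Yap1 was at 28.2 to 30.5 TPM in WT (C57BL/6) and 1.67 to 3.72 TPM in YAP KO livers, and at 30.99 to 33.2 TPM in WT (mixed) and 8.63 to 11.5 TPM across the YAP KO TAZ HET livers. Wwtr1 was at 6.26 to 6.83 TPM in WT (C57BL/6) and 13.3 to 16.7 TPM in YAP KO livers (0.74 ± 0.11 on the log2 scale, adjusted p = 0.00195). It was at 7.73 to 8.38 TPM in WT (mixed) and 11.5 to 14.1 TPM across the YAP KO TAZ HET livers (0.28 ± 0.10, adjusted p = 0.0594). Differences between the models are given with the YAP KO TAZ HET change subtracted, and that of Wwtr1, 0.46 ± 0.14, did not pass (unadjusted p = 0.00574, adjusted p = 0.834). The tissue label was checked with the hepatocyte genes Alb, Apoa1, Ttr, Cps1 and Hnf4a, which were present in all livers and summed to at least 67791 TPM in each liver. The mouse is the replicate, and p-values measure the spread between these mice.

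Serpin messages made up 2.97 to 3.80% of all TPM in the WT (C57BL/6) livers and 3.23 to 3.45% in the WT (mixed) livers. In the knockouts they made up 1.75 to 1.96% for YAP KO and 1.83 to 2.05% for YAP KO TAZ HET livers. Neither knockout group overlapped its WT group (exact two-sided permutation test, p = 0.1 in each model, the smallest that 3 mice against 3 allow). Most of this total came from the Serpina1 cluster, the mouse copies of the gene for alpha-1-antitrypsin, the main plasma inhibitor of neutrophil elastase.

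The 5 Serpina1 copies that passed the filter are shown first because their coding sequences are nearly the same, with 96.3 to 98.5% identity between pairs, while their changes were not. Serpina1f, the remaining copy, did not pass. The copies lie side by side on the minus strand of chromosome 12 in GRCm38, from chr12:103728156-103830373 for Serpina1b to chr12:103946931-103958975 for Serpina1e, and the model of Serpina1b spans that of Serpina1d (chr12:103763594-103773592). Of the 1308 positions in their alignment, 155 varied, a count that includes the positions where only Serpina1a has a base. The 60 bases printed here hold the densest run without such gaps, 18 variable bases, which are in capitals. This stretch codes for the reactive centre loop. The bases are read 5′ to 3′ on the coding strand from the reference transcripts, at coding bases 1170 to 1229 of 1308 in Serpina1a and 1101 to 1160 of 1239 in the other 4.
Serpina1a: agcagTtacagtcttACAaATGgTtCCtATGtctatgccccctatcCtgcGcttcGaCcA
Serpina1b: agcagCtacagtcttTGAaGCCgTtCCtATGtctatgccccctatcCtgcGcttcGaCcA
Serpina1c: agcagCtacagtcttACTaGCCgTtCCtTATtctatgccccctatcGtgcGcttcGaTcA
Serpina1d: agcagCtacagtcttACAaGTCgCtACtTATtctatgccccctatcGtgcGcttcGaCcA
Serpina1e: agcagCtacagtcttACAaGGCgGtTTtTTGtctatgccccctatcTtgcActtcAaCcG
In this window Serpina1a and Serpina1b differed at 6 bases and Serpina1c and Serpina1d at 5, while every other pair differed at 8 to 12. Of all 150-base stretches, the length of a read, 40.7% in Serpina1a, 16.4% in Serpina1b, 50.5% in Serpina1c, 23.3% in Serpina1d and 7.57% in Serpina1e also occur in another gene. How reads that match several copies were divided is not given in the sources used here, so the values of single copies are uncertain, and the sum over the cluster is given beside them.

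The starts of these genes were alike too. RefSeq promoter windows on GRCm38.p6, from 250 bases before to 50 bases after the start, were found for 54 of the 63 serpin genes and for 21 of the 28 that passed. The core letters GTTAAT of the HNF1 motif, searched on both strands, were present in 7 of these 21 genes, namely Serpina1a to Serpina1e, Serpina7 and Serpinb8, against 8.24% of 27025 genes. The windows of the 5 Serpina1 copies are 91.7 to 98.4% identical between pairs, so their matches are not 5 separate cases. The share of the 21 genes therefore cannot be read as an excess over all genes. HNF1 is a hepatocyte transcription factor. The match is in capitals in these 80-base stretches on the gene's strand, shown for Serpina1 copies with small and large changes and for Serpina7, which rose.
Serpina1a (chr12:103863598-103863677, minus strand): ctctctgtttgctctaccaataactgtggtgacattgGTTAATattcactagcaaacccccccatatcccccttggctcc
Serpina1b (chr12:103738173-103738252, minus strand): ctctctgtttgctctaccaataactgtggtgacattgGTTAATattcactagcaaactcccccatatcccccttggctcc
Serpina1e (chr12:103956933-103957012, minus strand): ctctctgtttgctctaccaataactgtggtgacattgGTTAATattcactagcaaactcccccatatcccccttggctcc
Serpina7 (chrX:139085251-139085330, minus strand): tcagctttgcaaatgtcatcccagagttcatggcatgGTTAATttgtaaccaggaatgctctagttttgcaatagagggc
Over these 80 bases Serpina1b and Serpina1e differed at 0 positions, and other pairs of the 5 copies at 1 to 3. STAT letters TTCNNNGAA were found in 4 of the 21 genes (9.55% of all genes) and TEAD letters GGAATG in 3 of the 21 (16.6% of all genes), Serpina7, Serpina12 and Serpinb6a. A match of letters is a description and not a binding site.

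**Figure D1:**
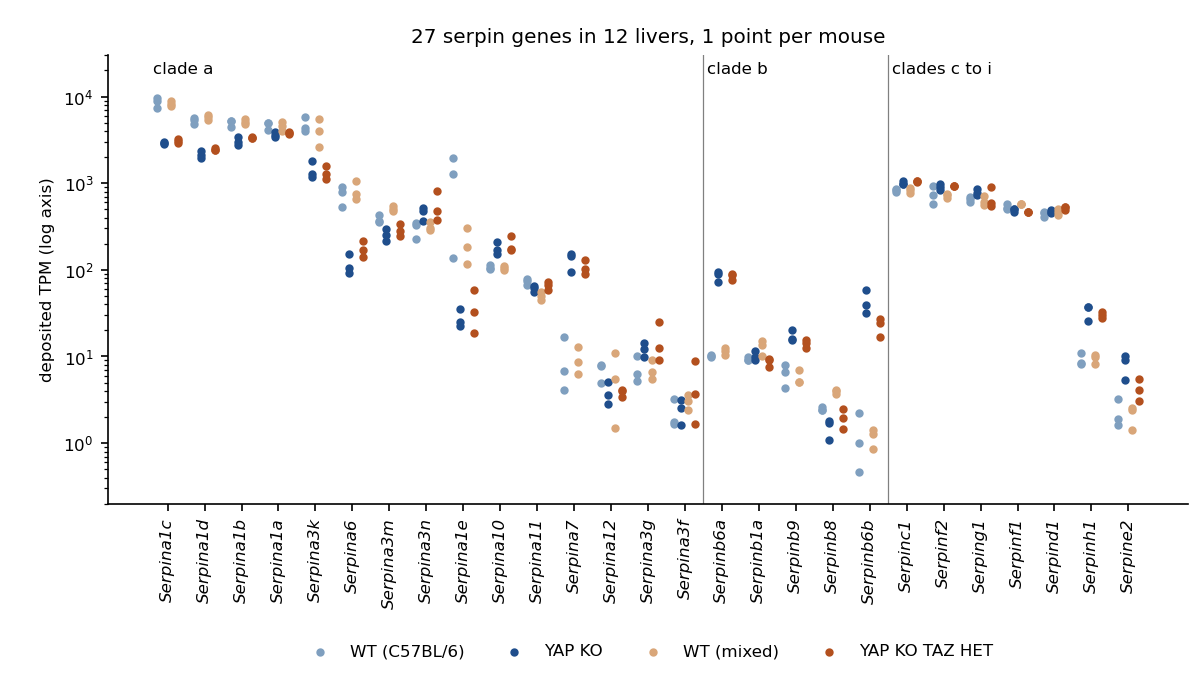
Deposited TPM on a log axis for 27 of the 28 serpin genes that passed the filter, 1 point per mouse, coloured by group and split by clade. The Serpina1 copies a to d lie between 1934 and 9623 TPM, and Serpina7 and Serpinb6b move from the low end to the middle in both knockout groups.

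In both models the serpins split in part by kind. The most abundant secreted clade a genes fell, while Serpina10 and thyroxine-binding Serpina7 of that clade rose. Of the clade b genes of the cell interior, 3 of 5 rose and Serpinb8 fell. Most coagulation and complement serpins did not pass the test on scaled values. For Serpinc1, and for Serping1 in YAP KO livers, this depended on the scaling. In YAP KO livers 8 of the 28 genes were higher and 12 lower, with limma and a Benjamini-Hochberg adjusted p under 0.05 over all 12158 genes tested, of which 18.9% were higher and 17.0% lower. In YAP KO TAZ HET livers 7 were higher and 11 lower, where 19.8% of 12152 genes were higher and 17.3% lower. Of the 28 genes, 1 passed the filter only with knockout livers counted. With a filter on WT livers alone, 7 of 27 were higher and 12 lower in YAP KO livers (15.8% and 18.3% of all genes). In YAP KO TAZ HET livers 6 of 27 were then higher and 11 lower (16.3% and 18.65% of all genes). Fold changes are on the log2(scaled TPM + 1) scale, which understates the change of low genes. Both models called 7 of the same genes higher and 10 of the same genes lower, and no gene was called in opposite directions.

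By clade, 2 of 15 clade a genes were higher and 10 lower in YAP KO livers, and 2 and 8 in YAP KO TAZ HET livers, with median log2 fold changes of -0.95 and -0.55. In each model the lower clade a genes included the 5 near-identical Serpina1 copies and 2 Serpina3 genes. With each of these clusters summed to 1 value, 7 of 20 serpin genes of all clades were lower for YAP KO and 6 of 20 for YAP KO TAZ HET. Of all genes, 17.0% and 17.3% were lower. Clade b gave 3 of 5 higher and 1 lower in YAP KO livers, and 3 and 2 in YAP KO TAZ HET livers, with medians of 1.02 and 0.89. Clades c to i gave 3 of 8 higher and 1 lower, and 2 and 1, with medians of -0.05 and 0.05. The median over all genes tested was -0.02 in YAP KO livers. Without the scaling factors that median moved to 0.28 for YAP KO and 0.25 for YAP KO TAZ HET livers. The serpin calls moved to 12 higher and 9 lower, and to 13 higher and 10 lower. Of all genes, 36.9% were then higher and 7.02% lower, and 34.7% and 7.44%. With quantile normalization the serpin calls were 10 and 10, and 10 and 9, against 17.2% and 17.8%, and 17.9% and 18.5%, of all genes.

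**Figure D2:**
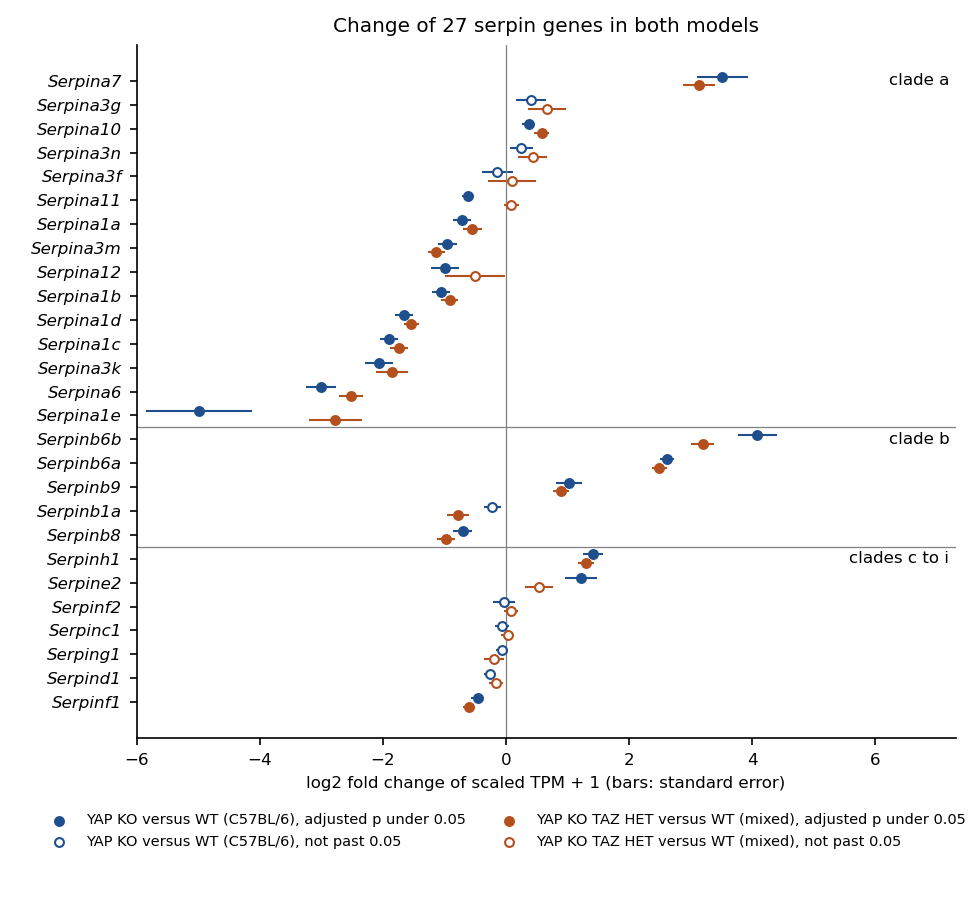
Log2 fold change of scaled TPM + 1 with its standard error for 27 of the 28 serpin genes, YAP KO against WT (C57BL/6) in blue and YAP KO TAZ HET against WT (mixed) in orange; filled points passed an adjusted p of 0.05. Points of both models lie on the same side of 0 for each plotted gene called in both, from Serpina1e, with -4.99 and -2.77, to Serpinb6b, with 4.08 and 3.20.

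Serpina1c was the highest serpin in each WT liver. It was at 9623, 8771 and 7434 TPM in WT (C57BL/6) mice LM75, LM192 and LM193, and at 2871, 2911 and 2995 TPM in YAP KO mice LM74, LM189 and LM191. It was at 8216, 7869 and 8862 TPM in the WT (mixed) mice LM226, LM227 and LM230, and at 3225, 2917 and 3074 TPM in the livers of the YAP KO TAZ HET mice LM225, LM250 and LM251. All further values are in this order of mice. The groups were far apart in both models, with log2 fold changes of -1.90 ± 0.15 (SE, n = 3 per group, adjusted p = 6.61e-05) and -1.74 ± 0.14 (adjusted p = 7.98e-05).

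Serpina1d was at 5704, 5302 and 4803 TPM in WT (C57BL/6) and 1934, 2114 and 2326 in YAP KO livers, and at 6087, 5882 and 5407 in WT (mixed) and 2538, 2397 and 2437 in YAP KO TAZ HET livers. It was also far lower in the knockouts of both models, with log2 fold changes of -1.66 ± 0.15 and -1.53 ± 0.13 (adjusted p = 0.000124 and 7.98e-05).

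Serpina1b was at 5175, 5174 and 4494 TPM in WT (C57BL/6) and 2757, 2994 and 3386 in YAP KO livers, and at 4869, 5521 and 5024 in WT (mixed) and 3335, 3299 and 3421 in YAP KO TAZ HET livers. Its log2 fold changes were -1.05 ± 0.15 and -0.91 ± 0.14 (adjusted p = 0.0012 and 0.00184). Serpina1a was at 4889, 4999.9 and 4165 TPM in WT (C57BL/6) and 3401, 3621 and 3869 in YAP KO livers, and at 3991, 5029 and 4622 in WT (mixed) and 3923, 3718 and 3797 in YAP KO TAZ HET livers. It changed least of the 5, by -0.71 ± 0.14 and -0.55 ± 0.16 (adjusted p = 0.00571 and 0.0265). The groups of Serpina1a did not overlap, but the gap was narrow. With quantile normalization its fold changes shrank to -0.17 and -0.16 and neither passed the test, and in YAP KO TAZ HET livers the call was also lost without scaling, with no filter on low genes (adjusted p = 0.0885) and when any of LM225, LM227, LM230, LM250 and LM251 was left out (log2 fold changes -0.58 to -0.46, adjusted p 0.0517 to 0.093).

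Serpina1e varied most. It was at 1957, 1292 and 137 TPM across WT (C57BL/6) livers, where LM193 lay far below the other two, and at 118, 181 and 305 TPM in the WT (mixed) livers. In YAP KO livers it was at 35, 22.7 and 25.2 TPM and in YAP KO TAZ HET livers at 57.8, 18.5 and 32.6 TPM, below every WT liver of the same background. The log2 fold changes were -4.99 ± 0.86 and -2.77 ± 0.44 (adjusted p = 0.00312 and 0.00192), with intervals of -6.96 to -3.01 and -3.77 to -1.77. The difference between the models did not pass the test (-2.22 ± 1.10, adjusted p = 0.999), nor did that between the WT groups (-1.97 ± 0.90, adjusted p = 0.865).

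The summed level of the Serpina1 cluster, which depends less on how reads were divided among the copies, was 27347, 25539.6 and 21032 TPM in WT (C57BL/6) livers and 10997, 11663 and 12601 TPM in YAP KO livers. It was 23281, 24482 and 24221 TPM in WT (mixed) and 13079, 12349.7 and 12761 TPM across the YAP KO TAZ HET livers. After scaling, the log2 ratio of group means was -1.42 for YAP KO and -1.22 for YAP KO TAZ HET livers, with groups that did not overlap (exact two-sided permutation test, p = 0.1 in each). Between the WT groups it was -0.10 (exact permutation p = 0.4), and the groups overlapped.

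The make-up of the cluster shifted with its total. Serpina1a was 17.9, 19.6 and 19.8% of the summed TPM in WT (C57BL/6) livers and 30.9, 31 and 30.7% in YAP KO livers, against 17.1, 20.5 and 19.1% in WT (mixed) and 30, 30.1 and 29.8% in YAP KO TAZ HET livers. Serpina1c was 35.2, 34.3 and 35.3% in WT (C57BL/6) and 26.1, 25 and 23.8% in YAP KO livers, and 35.3, 32.1 and 36.6% in WT (mixed) and 24.7, 23.6 and 24.1% in YAP KO TAZ HET livers. The leading copy was thus Serpina1c in every WT liver and Serpina1a in every knockout liver. The shares need no scaling between libraries, and for all 5 copies the share did not overlap between knockout and WT in either model (exact permutation p = 0.1 each). As parts of 1 sum, they are not 5 separate results. The log2 ratio of Serpina1c to Serpina1a, picked after the values were seen and so given without a test, was 0.98, 0.81 and 0.84 in WT (C57BL/6) and -0.24, -0.31 and -0.37 in YAP KO livers, and 1.04, 0.65 and 0.94 and -0.28, -0.35 and -0.30 on the mixed background.

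**Figure D3:**
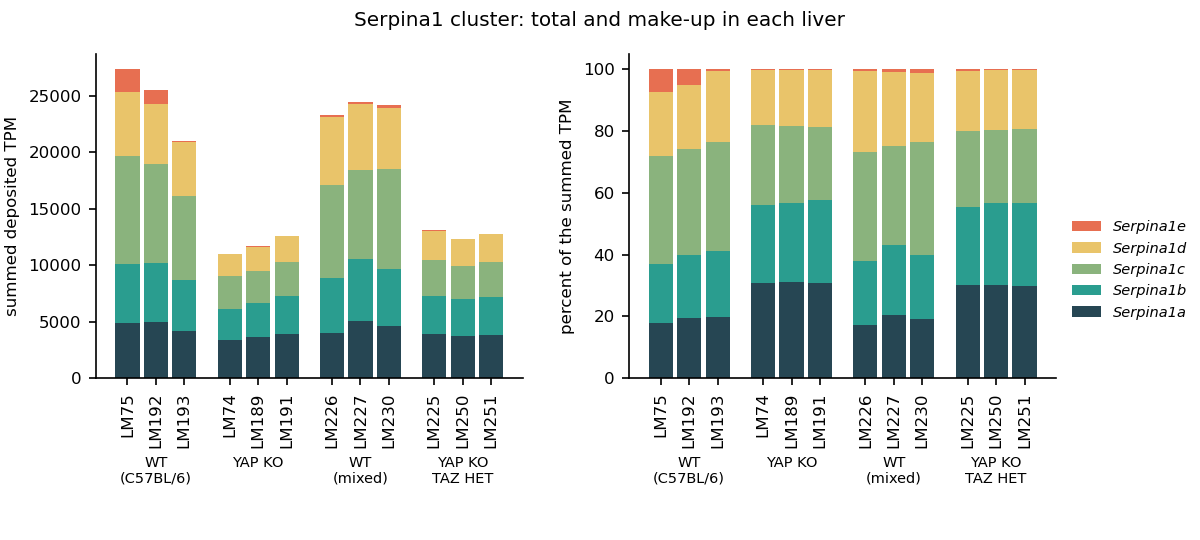
Stacked bars of the 5 Serpina1 copies in each of the 12 livers, as summed deposited TPM (left) and as percent of that sum (right). The sum is at least 21032 TPM in each WT liver and at most 13079 TPM in each knockout liver, and the Serpina1e band is visible mainly in LM75 and LM192.

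Serpinb1a is an inhibitor of the cell interior that acts on elastase, proteinase 3 and cathepsin G. It was at 9.17, 9.08 and 9.97 TPM in WT (C57BL/6) and 8.99, 11.5 and 9.89 in YAP KO livers, which overlapped, with a log2 fold change of -0.22 ± 0.14 (adjusted p = 0.25) that changed sign without scaling (0.09). It was at 10.1, 13.7 and 14.9 TPM in WT (mixed) and 9.32, 9.13 and 7.66 in YAP KO TAZ HET livers, which did not overlap, and fell, with a log2 change of -0.78 ± 0.17 (adjusted p = 0.00921). The difference between the models was 0.55 ± 0.23 (adjusted p = 0.999) and did not pass.

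The Serpina3 cluster is the mouse expansion of the single human gene for alpha-1-antichymotrypsin, an acute phase inhibitor of chymotrypsin-like proteases. Of its 10 genes, 5 passed the filter and 2 of these, Serpina3k and Serpina3m, fell in both models. Serpina3k, the kallikrein-binding protein, was at 5739.9, 4295 and 4014 TPM in WT (C57BL/6) and 1187, 1285 and 1827 TPM in YAP KO livers, and at 3973, 2608 and 5436 TPM in WT (mixed) and 1569, 1110.4 and 1284 TPM across the YAP KO TAZ HET livers. The lowest WT liver, LM227, was still above the highest knockout liver of its background, and the log2 fold changes were -2.07 ± 0.23 and -1.85 ± 0.26 (adjusted p = 0.000363 and 0.00116). Serpina3m was at 358, 435 and 364 TPM in WT (C57BL/6) and 215, 251 and 297 in YAP KO livers, and at 475, 548 and 509.6 in WT (mixed) and 339.6, 248 and 279 in YAP KO TAZ HET livers, with log2 fold changes of -0.95 ± 0.16 and -1.13 ± 0.13 (adjusted p = 0.00246 and 0.000477).

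Serpina3n, an inflammation-responsive member of the cluster, was at 327, 350.3 and 226 TPM in WT (C57BL/6) and 479, 363 and 518 TPM in YAP KO livers, and at 304, 352 and 292 in WT (mixed) and 814, 375 and 474 in YAP KO TAZ HET livers, where LM225 was the highest. On deposited TPM each knockout liver was above each WT liver of its background. After scaling the groups overlapped and the log2 fold changes were 0.25 ± 0.19 and 0.44 ± 0.24 (adjusted p = 0.342 and 0.182). Without scaling they were 0.60 and 0.74 and passed the test (adjusted p = 0.0334 and 0.0423), as they did with quantile normalization (0.57 and 0.81, adjusted p = 0.0492 and 0.0381), so the call for Serpina3n depends on the scaling. Serpina3g, an inhibitor of cathepsins in immune cells, had log2 fold changes of 0.41 and 0.66 that did not pass (adjusted p = 0.222 and 0.127), and LM225 was again its highest liver. Without scaling they were 0.72 and 0.93 and passed (adjusted p = 0.0356 and 0.0449). The first also passed without LM75 (0.69, adjusted p = 0.0175) and the second without LM250 (0.94, adjusted p = 0.041).

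The Serpina3 sum was 6439.6, 5087 and 4612 TPM in WT (C57BL/6) and 1901, 1916 and 2654 TPM in YAP KO livers, and 4761, 3517 and 6250.5 TPM in WT (mixed) and 2758, 1745 and 2054 TPM across the YAP KO TAZ HET livers. After scaling the log2 ratio of group means was -1.67 for YAP KO and -1.46 for YAP KO TAZ HET livers (exact permutation p = 0.1 each) and -0.22 between the WT groups (exact permutation p = 0.5). Serpina3n made up 5.08, 6.89 and 4.89% of the sum in WT (C57BL/6) and 25.2, 19 and 19.5% in YAP KO livers, and 6.38, 10 and 4.67% in WT (mixed) and 29.5, 21.5 and 23.1% in YAP KO TAZ HET livers. That share did not overlap between knockout and WT in either model (exact permutation p = 0.1 each) and needs no scaling. Coding identity in this cluster is 80.2 to 91.7% between pairs, and at most 0.331% of the 150-base stretches of a passing member occur in another gene, so division of reads between copies bears less on these values than on Serpina1. The model of Serpina3m (chr12:104338486-104394257) spans that of Serpina3k (chr12:104338486-104346144), so these genes overlap in the annotation.

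**Figure D4:**
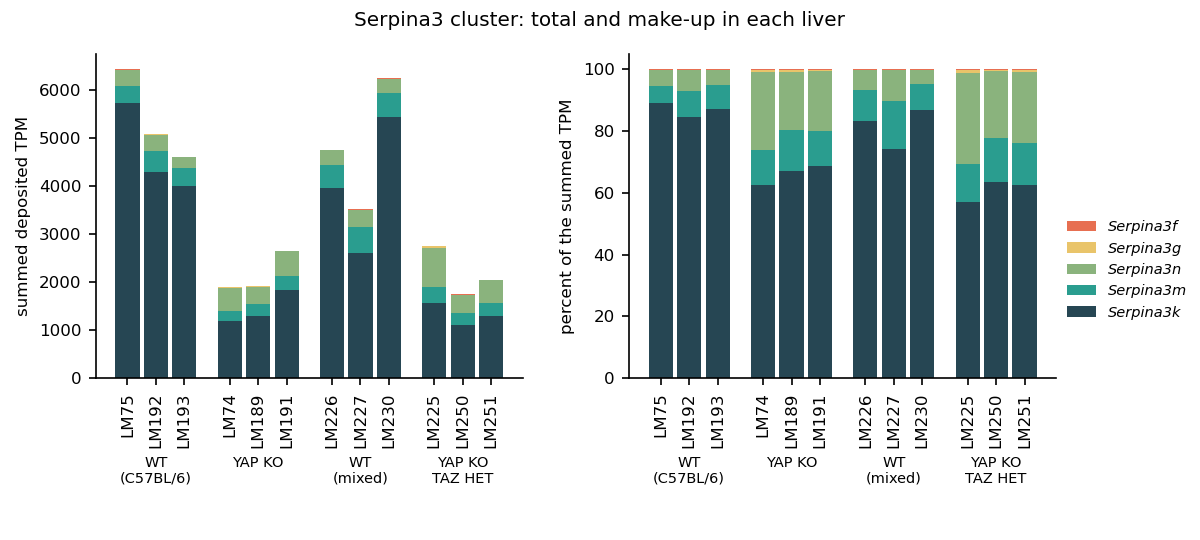
Stacked bars of the 5 Serpina3 genes that passed the filter in each of the 12 livers, as summed deposited TPM (left) and as percent of that sum (right). Serpina3k takes 74.2 to 89.1% of the cluster in WT livers and 56.9 to 68.8% in knockout livers, and the Serpina3n band is wider in each knockout liver.

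The hormone carriers moved in opposite directions. Serpina6, corticosteroid-binding globulin, was at 536, 786 and 904 TPM in WT (C57BL/6) and 104, 154 and 93.1 TPM in YAP KO livers, and at 742, 1059.5 and 664 TPM in WT (mixed) and 214, 167 and 141 TPM across the YAP KO TAZ HET livers. It fell, with log2 changes of -3.00 ± 0.24 and -2.52 ± 0.20 (adjusted p = 7.35e-05 and 6.44e-05). Serpina7, thyroxine-binding globulin, is on chromosome X and was at 4.06, 6.89 and 17 TPM in WT (C57BL/6) and 153, 143 and 93.8 TPM in YAP KO livers, and at 6.27, 8.63 and 12.9 TPM in WT (mixed) and 89.4, 129 and 101 TPM across the YAP KO TAZ HET livers. It rose by 3.51 ± 0.41 and 3.14 ± 0.26 (adjusted p = 0.000507 and 9.12e-05). In WT livers Serpina6 stood far above Serpina7, while in YAP KO livers the levels of the pair were near each other: the log2 ratio of Serpina7 to Serpina6, also picked after the values were seen, was -7.05, -6.83 and -5.73 in WT (C57BL/6), 0.56, -0.11 and 0.01 in YAP KO, -6.89, -6.94 and -5.69 in WT (mixed) and -1.26, -0.38 and -0.47 in YAP KO TAZ HET livers. Their coding sequences are 50.8% identical and neither shares a 150-base stretch with another gene.

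**Figure D5:**
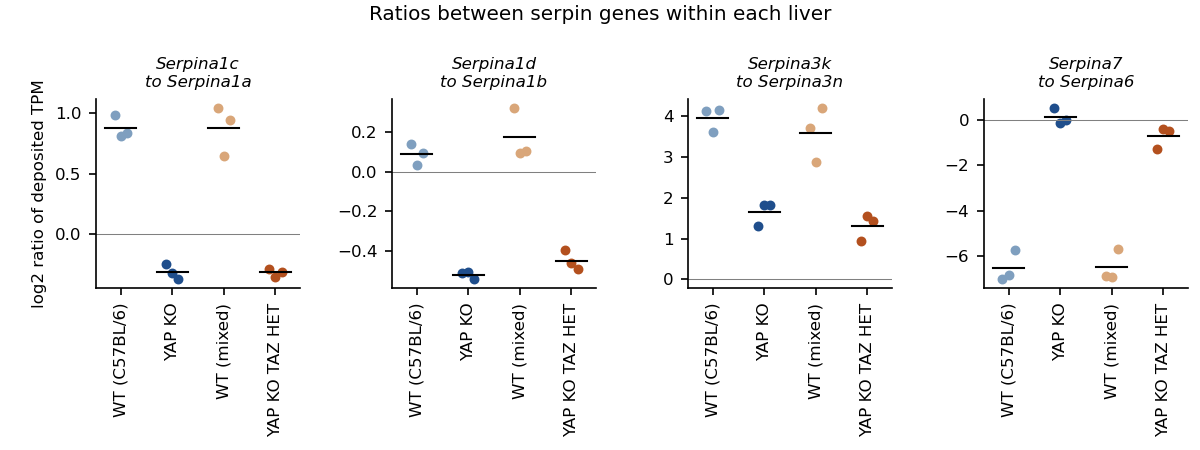
Log2 ratio of deposited TPM between pairs of serpin genes within each liver, 1 point per mouse, with the mean of each group as a line. Each pair is at a different level in knockout and WT livers, with the ratio of Serpina1c to Serpina1a between 0.65 and 1.04 in WT livers and between -0.37 and -0.24 in knockout livers.

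Of the 3 coagulation inhibitors that passed, 1 rose in each model. That was Serpina10, the protein Z-dependent inhibitor of factor Xa, with log2 fold changes of 0.37 ± 0.10 and 0.58 ± 0.13 (adjusted p = 0.025 and 0.00831). The YAP KO call was lost when LM192, LM193 or LM191 was left out (adjusted p = 0.0655, 0.0819 and 0.0592). Serpinc1, antithrombin, the main inhibitor of thrombin, was at 844, 797 and 848 TPM in WT (C57BL/6) and 980.0, 988 and 1059 TPM in YAP KO livers, and at 878, 838 and 779.9 in WT (mixed) and 1054, 1051 and 1028 in YAP KO TAZ HET livers. These deposited values were higher in each knockout liver, and after scaling they overlapped, with log2 fold changes of -0.07 ± 0.11 and 0.03 ± 0.10 (adjusted p = 0.665 and 0.846, intervals -0.32 to 0.18 and -0.21 to 0.27). Without scaling they were 0.28 and 0.33 and passed (adjusted p = 0.0256 and 0.0271), as they did with quantile normalization (0.36 and 0.52, adjusted p = 0.0119 and 0.00366). Serpind1, heparin cofactor II, had log2 fold changes of -0.26 and -0.16 that did not pass, and of 0.09 and 0.14 without scaling.

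Among the inhibitors of plasminogen activation and fibrinolysis, Serpine2, protease nexin 1, was at 1.92, 1.6 and 3.23 TPM in WT (C57BL/6) and 9.23, 10.1 and 5.29 TPM in YAP KO livers and rose by 1.22 ± 0.26 (adjusted p = 0.00817). It was at 2.4, 1.41 and 2.51 TPM in WT (mixed) and 4.16, 3.1 and 5.56 TPM across the YAP KO TAZ HET livers, where 0.54 ± 0.22 did not pass (adjusted p = 0.091) but did without scaling (0.76, adjusted p = 0.0239), and the difference between the models did not pass either (0.69 ± 0.37, adjusted p = 0.999). Serpinf2, alpha-2-antiplasmin, had log2 fold changes of -0.03 and 0.08 (adjusted p = 0.909 and 0.631), which did not pass. Without scaling they were 0.32 and 0.38 and with quantile normalization 0.37 and 0.52, and the second passed in both settings (adjusted p = 0.014 and 0.00466).

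Serping1, the C1 inhibitor of the complement and contact systems, was at 662, 686 and 606 TPM in WT (C57BL/6) and 855, 739.7 and 779 TPM in YAP KO livers, and at 703, 602 and 564 in WT (mixed) and 894, 548 and 597 in YAP KO TAZ HET livers. LM225 lay far above the other two mice of its group. The log2 fold changes were -0.07 ± 0.10 and -0.20 ± 0.16 (adjusted p = 0.61 and 0.366). Both turned positive without scaling (0.28 and 0.10), and the first was then called higher (adjusted p = 0.043). Without LM225 the change in YAP KO TAZ HET livers was -0.38 (adjusted p = 0.0417).

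Clade b genes are the serpins of the cell interior, and 5 of 28 passed. Serpinb6b was at 2.23, 1.01 and 0.463 TPM in WT (C57BL/6) and 59.2, 38.9 and 32.1 TPM in YAP KO livers, and at 1.29, 0.849 and 1.42 TPM in WT (mixed) and 27.3, 16.6 and 24.2 TPM across the YAP KO TAZ HET livers. It had the largest rise of all 28 genes in both models, with 4.08 ± 0.32 and 3.20 ± 0.19 (adjusted p = 6.62e-05 and 1.7e-05). Serpinb6a, also on chromosome 13 and an inhibitor of cathepsin G and other serine proteases, was at 9.93, 10.1 and 10.3 TPM in WT (C57BL/6) and 88.5, 72.6 and 94.6 TPM in YAP KO livers, and at 12.6, 10.5 and 11.5 TPM in WT (mixed) and 77.3, 89.4 and 88 TPM across the YAP KO TAZ HET livers. Replicates of Serpinb6a lay close together, and it rose by 2.61 ± 0.12 and 2.49 ± 0.12 (adjusted p = 4.56e-06 and 5.4e-06). The pair is 86.2% identical in coding sequence and shares no 150-base stretch with another gene.

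Serpinb9, an inhibitor of granzyme B, was at 8.03, 6.65 and 4.28 TPM in WT (C57BL/6) and 20.2, 15.8 and 15.6 TPM in YAP KO livers, and at 7, 5.08 and 5.14 TPM in WT (mixed) and 15.3, 12.4 and 14.3 TPM across the YAP KO TAZ HET livers. It rose by 1.02 ± 0.21 and 0.89 ± 0.13 (adjusted p = 0.00642 and 0.00123). Serpinb8, at 1.09 to 4.12 TPM in all livers, fell, with log2 changes of -0.70 ± 0.15 and -0.97 ± 0.15 (adjusted p = 0.00892 and 0.00157). The first call was lost without scaling (adjusted p = 0.0518). On chromosome 13, 4 of 16 serpin genes passed the filter, of which 3 rose and 0 fell in YAP KO livers and 3 rose and 1 fell in YAP KO TAZ HET livers. On chromosome 12, 14 of 23 passed the filter, of which 1 rose and 10 fell in YAP KO livers and 1 rose and 8 fell in YAP KO TAZ HET livers. Those that fell included the 5 near-identical Serpina1 copies in each model. Of all genes tested, 18.9% were higher and 17.0% lower in YAP KO livers, and 19.8% and 17.3% in YAP KO TAZ HET livers.

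Serpinh1, the collagen chaperone HSP47 of the endoplasmic reticulum, was at 8.45, 11.1 and 8.25 TPM in WT (C57BL/6) and 37.7, 37 and 26 TPM in YAP KO livers, and at 10.5, 8.13 and 9.85 TPM in WT (mixed) and 27.9, 30.3 and 32.3 TPM across the YAP KO TAZ HET livers. All knockout livers were above all WT livers, and it rose by 1.42 ± 0.16 and 1.30 ± 0.13 (adjusted p = 0.000436 and 0.000211). Its client, collagen I, rose as well, by 4.03 and 3.13 for Col1a1 (adjusted p = 2.42e-05 and 0.0004). Serpinf1, pigment epithelium-derived factor, a serpin without inhibitory function, fell, with log2 changes of -0.46 ± 0.11 and -0.60 ± 0.10 (adjusted p = 0.0114 and 0.00295), and the first of these calls was lost without scaling (-0.11) and both with quantile normalization (-0.13 and -0.24).

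Serpina12, the adipokine vaspin, was at 4.92, 7.93 and 7.79 TPM in WT (C57BL/6) and 2.86, 3.61 and 5.08 TPM in YAP KO livers and fell, with a log2 change of -0.99 ± 0.22 (adjusted p = 0.0106), a call lost with all 12 libraries in 1 fit (adjusted p = 0.089). It was at 5.54, 1.49 and 11.1 TPM in WT (mixed) livers, a wide spread, and 4.04, 4.11 and 3.38 TPM across the YAP KO TAZ HET livers, where the change was -0.50 ± 0.49 (adjusted p = 0.457). Without LM227, the lowest WT liver, that change was -1.13 (adjusted p = 0.0221), and without LM230, the highest, it was 0.06. Serpina11, a little studied secreted serpin, was at 75.3, 78.5 and 66.8 TPM in WT (C57BL/6) and 64.9, 55.4 and 61.9 TPM in YAP KO livers, and at 49.8, 45 and 55.6 TPM in WT (mixed) and 72, 58.4 and 66.1 TPM across the YAP KO TAZ HET livers. It fell, with a log2 change of -0.62 ± 0.10 in YAP KO livers (adjusted p = 0.00253), a call lost without scaling (-0.27, adjusted p = 0.0668), and had 0.08 ± 0.12 in YAP KO TAZ HET livers (adjusted p = 0.625), which was called higher without scaling (0.38, adjusted p = 0.0352). Between the WT groups Serpina11 differed by -0.61 ± 0.12 (unadjusted p = 0.000996, adjusted p = 0.269). The difference between the models was -0.70 ± 0.16 (unadjusted p = 0.000767, adjusted p = 0.388) and did not pass.

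The 35 serpin genes that did not pass reached at most 2.2 TPM, and 18 of them were listed at 0 in all 12 livers. Just below the filter was Serpina3i, at 0.311, 0.0482 and 0 TPM in WT (C57BL/6) and 2.2, 0.961 and 0.823 TPM in YAP KO livers, and at 0.107, 0.0531 and 0.0943 and 0.599, 0.434 and 0.984 TPM on the mixed background. Serpina9 was at 0.435, 0.924 and 0.678 TPM in WT (C57BL/6) and 0.193, 0 and 0.424 TPM in WT (mixed) livers, and was listed at 0 in all 6 knockout livers. At these levels no change was computed.

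The proteases and partners that serpins act with were read from a list of 26 genes, of which 24 were tested. In YAP KO livers 6 were higher and 9 lower, and in YAP KO TAZ HET livers 7 were higher and 7 lower, where 18.9% and 19.8% of all genes were higher and 17.0% and 17.3% lower. Plat, tissue plasminogen activator, rose by 2.75 ± 0.22 and 1.98 ± 0.18. It was at 0 to 0.608 TPM in WT livers and 4.80 to 9.29 TPM in knockout livers. Its substrate Plg fell on scaled values, with log2 changes of -0.43 ± 0.13 and -0.35 ± 0.12. The deposited TPM of Plg overlapped, at 1630 to 1893 in WT (C57BL/6) and 1527 to 1852 in YAP KO livers. On the mixed background it was at 1718 to 1787 in WT and 1611 to 1904 in YAP KO TAZ HET livers. Prtn3, a neutrophil protease that Serpinb1a inhibits, rose by 2.45 ± 0.44 and 2.16 ± 0.37. Plat, Plaur, Prtn3, St14 and Gzmb met the filter only with knockout livers counted. A rise of such a gene is in part built into the filter. Elane and Ctsg, the elastase and cathepsin G genes, stayed under 1 TPM in every liver, and Klkb1, plasma kallikrein, fell, with log2 changes of -0.58 ± 0.09 and -0.51 ± 0.10. F2, the thrombin gene, had -0.31 ± 0.12 and -0.27 ± 0.11, which did not pass.

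Of 14 acute phase plasma proteins, 8 were higher and 2 lower in YAP KO livers and 8 higher and 0 lower in YAP KO TAZ HET livers. Among all genes tested, 18.9% and 19.8% were higher and 17.0% and 17.3% lower. Median log2 fold changes of the 14 were 0.96 and 1.28, with ranges of -0.68 to 5.47 and -0.29 to 6.20. Their summed level was 15832 to 17807 TPM in WT (C57BL/6) and 38908 to 53248 TPM in YAP KO livers, and 12994 to 16300 TPM in WT (mixed) and 36918 to 46499 TPM across the YAP KO TAZ HET livers. Haptoglobin, Hp, rose by 1.92 and 2.02, and Saa1 by 2.66 and 2.72, in the same livers in which Serpina1 and Serpina3k fell. There Serpina3n did not pass on scaled values, but was called higher without scaling and with quantile normalization.

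Markers of other cells moved with some of these changes, and their part in the serpin values was not tested. Beside the counts below, 18.9% of all genes were higher and 17.0% lower in YAP KO livers, and 19.8% and 17.3% in YAP KO TAZ HET livers. In whole liver, fewer cells of a type and less RNA per cell cannot be told apart. All 5 macrophage markers rose in both models, and their sum was 128 to 151 TPM in WT (C57BL/6) and 293 to 458 TPM in YAP KO livers, and 106 to 207 TPM in WT (mixed) and 402 to 501 TPM across the YAP KO TAZ HET livers. Of the neutrophil and monocyte markers, 5 of 5 tested rose for YAP KO and 2 of 5 for YAP KO TAZ HET livers, and Ly6g stayed under 1 TPM. Among those tested, Ccr2 was at most 0.659 TPM in WT livers and met the filter only with knockout livers counted. Of 6 stellate cell and myofibroblast markers 2 rose in each model, Col1a1 and Pdgfrb, 2 fell in YAP KO livers, and the sum was 28.9 to 42.5 TPM in WT (C57BL/6) and 103 to 128 TPM in YAP KO livers, and 34.3 to 50.5 TPM in WT (mixed) and 84.8 to 104 TPM across YAP KO TAZ HET livers. Of the hepatocyte markers, 2 of 5 fell in YAP KO livers, Alb and Ttr, and 1 of 5, Ttr, in YAP KO TAZ HET livers. Endothelial markers gave 0 of 5 higher and 2 of 5 lower in each model, and T and NK cell markers 0 of 2 tested in either direction. Of 3 cholangiocyte markers tested 1, Sox9, rose in each model, 1, Epcam, fell in YAP KO TAZ HET livers (-1.47, adjusted p = 0.00127), and Krt7 and Cftr stayed under 1 TPM. Acinar markers of the pancreas, which summed to 52.2 TPM in 1 WT (C57BL/6) liver and to 24.5 and 78.4 TPM in 2 YAP KO livers, gave 0 calls.

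Between the WT groups, which differ in background, 0 of the 28 serpin genes passed in either direction with limma, where 0.140% of 12156 genes were higher and 0.0329% lower. An unadjusted p under 0.05 was found for 3 of the 28 and for 706 of all 12156 genes. Those 3 were Serpina11, Serpinb8 (0.45 ± 0.11, adjusted p = 0.476) and Serpina3m (0.34 ± 0.12, adjusted p = 0.76). The difference between the models, fitted over all 12 livers, gave 0 of 28 genes, where 0.0576% of 12159 genes passed. An unadjusted p under 0.05 was found for 3 of the 28 and for 554 of all 12159 genes. The 3 were Serpina11, Serpinb1a and Serpinb6b (0.90 ± 0.41, interval 0.02 to 1.78, adjusted p = 0.999). The models also differ in background, so genotype and background cannot be told apart in these differences.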

How the data were processed

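RNA of whole liver was sequenced in 4 groups of 3 female mice. The authors aligned the reads to GRCm38 in CLC Genomics Workbench and deposited TPM for each gene and mouse; the aligner's treatment of reads that match several genes is not given in the sources used here. TPM keeps no record of depth. The paper gives a common number of reads for the samples, but the depth of each library is unknown here. The spread between mice is the only error. The deposited columns of the authors' own comparisons by edgeR (group maxima, fold changes, p-values) were not used.

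TPM was divided by a trimmed mean of log ratios (30% and 5% trims), and log2 was taken after adding 1. Each model was fitted on its 6 libraries with limma 3.58.1 in R 4.3.3 (trend), the difference between the models on 12, with Benjamini-Hochberg adjustment over all genes, two-sided. Genes needed 1 TPM in at least 3 of the 12 livers. Cluster sums and shares were compared with exact permutation tests (scipy 1.17.1). Intervals are 95% intervals of limma. Sequences came from GENCODE M21 transcripts, where 62 of 63 members matched with the same coordinates, and from RefSeq promoters, aligned with mafft 7.526. The steps were tested on simulated data. Values per mouse were printed for the 6 highest serpins in WT livers, the 6 largest rises and falls in each model, genes called in 1 model only, and Serpina3n, Serpinh1, Serpinc1 and Serping1 (1 gene that the rule names is counted but not reported here); Serpina3i and Serpina9 were shown as well. The members, lists and tests were chosen with earlier results of these data known. The alternatives were another pseudocount, other filters, no scaling, quantile normalization, robust shrinkage, 1 fit of 12 libraries, a threshold of 0.01, summed clusters and each mouse left out; a filter on WT livers was added after seeing the data.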

Additional observations from a re-analysis of the deposited data

Results flagged for a closer look

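Serpina11 was flagged because its deposited TPM moved in opposite directions in the models. The ratio of mean TPM was 0.826 for YAP KO to WT (C57BL/6), with every knockout liver below every WT liver, and 1.31 for YAP KO TAZ HET to WT (mixed), with every knockout liver above every WT liver. The difference between the models did not pass the test on scaled values (-0.70 ± 0.16, adjusted p = 0.388), and after scaling the groups overlapped on the mixed background. The knockout groups lay near each other (64.9, 55.4 and 61.9 against 72, 58.4 and 66.1 TPM), and the WT groups stood apart (75.3, 78.5 and 66.8 against 49.8, 45 and 55.6 TPM). In the reference, 40.1% of the 150-base stretches of Serpina11 also occur in the overlapping gene Gm28577.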

How the results depend on the processing

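The serpin counts changed by more than 1.5 times in few settings. With each cluster summed to 1 value, 7 of 20 genes were lower for YAP KO and 6 of 20 for YAP KO TAZ HET, because the copies then count once. Without scaling, 13 of 28 were higher in YAP KO TAZ HET livers, as were 34.7% of all genes. With 1 mouse left out, the counts ran from 7 to 9 higher and stayed at 12 lower for YAP KO, and ran from 7 to 8 higher and 10 to 11 lower for YAP KO TAZ HET livers. Of all genes, 14.5 to 17.8% were then higher and 12.2 to 15.7% lower for YAP KO. For YAP KO TAZ HET these shares were 14.8 to 19.7% and 12.1 to 17.5%. The serpin counts stayed at 0 between the WT groups and for the difference between the models. The Serpina1 sum kept its direction in both models, from -1.52 to -1.30 and from -1.28 to -1.18 with 1 mouse left out, as did the Serpina3 sum, from -1.87 to -1.48 and from -1.64 to -1.19. Between the WT groups the Serpina1 sum ran from -0.20 to 0.00296, turning sign without LM75, and the Serpina3 sum from -0.48 to -0.04.

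Signs turned, with no call in either direction unless said, in YAP KO livers without scaling for Serpind1 (0.0893), Serping1 (0.28, called), Serpinc1 (0.28, called), Serpinf2 (0.32), Serpinb1a (0.0931) and Serpina3f (0.10), and with quantile normalization for Serpind1 (0.0858), Serping1 (0.32), Serpinc1 (0.36, called) and Serpinf2 (0.37). With 1 mouse left out, Serpinf2 ran from -0.21 to 0.17 (above 0 without LM75 or LM189), Serpina3f from -0.30 to 0.10 (without LM75 or LM191) and Serpinc1 from -0.12 to 0.00955 (without LM74). In YAP KO TAZ HET livers they turned without scaling for Serpind1 (0.14) and Serping1 (0.10), with quantile normalization for Serpind1 (0.22), Serping1 (0.16) and Serpina3f (-0.11), and with 1 mouse left out Serpinf2 ran from -0.00501 to 0.13 (below 0 without LM226), Serpina3f from -0.36 to 0.53 (below 0 without LM225 or LM227) and Serpina12 from -1.13 to 0.062 (above 0 without LM230). The cause was not tested. The WT mice were littermates of the knockouts, but the labels do not give the litters. No paired analysis was therefore possible, and the fits ignore litter.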
